A study of Mus musculus with 24 samples.

Results

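The Dlx and Msx genes encode homeobox transcription factors, and the 8 members examined here were the 6 Dlx genes (Dlx1 to Dlx6) and the 2 Msx genes (Msx1 and Msx2). They were chosen by symbol from the deposited gene table, with the row of the largest summed value for each symbol, and make up 8 of the 19409 symbols in it. Each had a single row. The table comes from calibrated RNA-seq (cRNA-seq) of mouse embryonic stem cells (ESCs) derived from E14 ESCs, with Drosophila SG4 cells added in a fixed proportion as a spike-in, so that levels could be set against cell number. Both lines carry ERT2-Cre, a tamoxifen-inducible recombinase, at Rosa26, and were taken untreated and after 72 h with 800 nM 4-hydroxytamoxifen (OHT), with 3 libraries in each of the 4 conditions. PRC1CKO cells (clone B9) are Ring1a-/- and Ring1b fl/fl, so that the untreated cells already lack RING1A and OHT also removes RING1B. PRC1CPM cells (clone 41) carry Ring1a I50A/D53K and a Ring1b allele that OHT switches from wild type to I53A/D56K, so that the untreated cells already hold inactive RING1A and only inactive RING1A and RING1B are left after OHT. Each line is 1 clone, no library of cells without the Cre or of unmodified cells treated with OHT was used here, and a difference between the lines cannot be told apart from a difference between these clones. The libraries are of whole cultures, in which fewer cells of a type and less RNA per cell cannot be told apart.

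Polycomb repressive complex 1 (PRC1) mono-ubiquitylates histone H2A through RING1A or RING1B and helps to keep genes of later development silent in ESCs. Dlx and Msx genes are such genes: they pattern the branchial arches, limbs, teeth and skull, and the Dlx genes also direct the ventral forebrain cells that become GABAergic neurons. The Dlx genes lie in convergent pairs whose partners share enhancers, and Msx1 and Msx2 are induced by bone morphogenetic protein (BMP) signalling in many tissues. Dlx proteins mostly act as activators and Msx proteins as repressors.

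In the deposited table (mm10), Dlx1 lay at chr2:71529445-71533980 and Dlx2 at chr2:71543408-71546754, facing each other across 9427 bases. Dlx3 lay at chr11:95120117-95125291 and Dlx4 at chr11:95140447-95145801, with 15155 bases between their ends. Dlx6 (chr6:6863334-6867970) and Dlx5 (chr6:6877801-6882068) were 9830 bases apart. Msx1 (chr5:37820491-37824585) and Msx2 (chr13:53466881-53472780) were unpaired. RefSeq annotation of GRCm38.p6 gave 3 exons to each of Dlx1 to Dlx5, 4 to Dlx6 and 2 to each Msx gene, and reads were counted over whole gene bodies, introns included.

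The 250 bases before the start of 4 members were available from RefSeq (GRCm38.p6) and are shown, 5′ to 3′ on the strand of the gene, because these members rose together and the density of CG dinucleotides is a feature that Polycomb-bound promoters are known for. Capitals mark each CG. The windows are chr2:71529195-71529444 (plus strand) for Dlx1, chr2:71546755-71547004 (minus) for Dlx2, chr5:37824586-37824835 (minus) for Msx1 and chr13:53472781-53473030 (minus) for Msx2.
Dlx1: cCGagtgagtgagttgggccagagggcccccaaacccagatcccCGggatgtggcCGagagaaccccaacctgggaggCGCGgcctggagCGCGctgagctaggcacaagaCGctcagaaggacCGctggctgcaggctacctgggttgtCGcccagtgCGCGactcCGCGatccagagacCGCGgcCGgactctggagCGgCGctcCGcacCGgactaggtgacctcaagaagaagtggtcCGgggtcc
Dlx2: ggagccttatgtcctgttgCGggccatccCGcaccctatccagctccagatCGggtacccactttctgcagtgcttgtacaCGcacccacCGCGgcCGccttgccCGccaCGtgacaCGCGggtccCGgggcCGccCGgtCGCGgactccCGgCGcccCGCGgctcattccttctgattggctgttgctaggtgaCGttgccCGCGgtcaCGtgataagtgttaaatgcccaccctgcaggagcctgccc
Msx1: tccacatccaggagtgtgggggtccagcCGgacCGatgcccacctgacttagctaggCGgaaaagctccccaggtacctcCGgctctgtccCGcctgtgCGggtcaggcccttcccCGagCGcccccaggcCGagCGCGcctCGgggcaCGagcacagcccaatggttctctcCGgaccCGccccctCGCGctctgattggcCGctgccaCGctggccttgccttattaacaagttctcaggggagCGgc
Msx2: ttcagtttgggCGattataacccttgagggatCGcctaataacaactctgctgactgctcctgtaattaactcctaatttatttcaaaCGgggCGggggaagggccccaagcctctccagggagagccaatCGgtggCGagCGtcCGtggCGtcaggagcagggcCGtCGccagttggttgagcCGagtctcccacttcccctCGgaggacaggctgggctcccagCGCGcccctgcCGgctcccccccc
The Dlx2 window held 24 CG dinucleotides, a number reached by 11.98% of the 32851 promoters in the table. Dlx1 held 22 (reached by 14.8%), Msx1 held 20 (17.9%) and Msx2 held 16 (25.4%), against a median of 6 over all promoters. G and C made up 68.0% of the Dlx1 and Msx1 windows, 66.4% of that of Dlx2 and 61.6% of that of Msx2, against a median of 52.4%. The motif TAATT, a core that homeodomain proteins bind, was searched on both strands with overlapping matches counted. It had 3 matches in the Msx2 window and none in those of Dlx1, Dlx2 and Msx1, and 25.0% of all promoters held at least 1. The match is a description of letters and not a binding site.

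The libraries held between 14668159 and 27016156 reads on genes. Values are normalised read counts, the reads on a gene divided by one size factor per library, and 1 read was recovered as the unit of every value. Of the recovered values of 1 to 20 reads, 80.2% were even numbers, against 51.5% of values above 1000 reads, so that the reads of a pair were mostly counted one by one and low values rest on fewer fragments than reads. Replicate 1 had the highest median normalised count of the 3 libraries in each condition (592.9 in untreated and 572.2 in OHT-treated PRC1CKO cells, 595.8 and 700.8 in PRC1CPM cells), so a result whose call changes, or whose value moves by over 1.5 times, without the 4 libraries of that number is also given without them. Ring1, which encodes RING1A, had 227 ± 76.3 normalised counts (SD, n = 3) in untreated and 254 ± 26.4 in OHT-treated PRC1CKO cells, and 162 ± 32.2 and 140.1 ± 25.8 in PRC1CPM cells. Rnf2, which encodes RING1B, had 1526 ± 201 and 1546 ± 50.8 in PRC1CKO cells and 1695 ± 140 and 1511 ± 214 in PRC1CPM cells. Reads thus lay on Ring1 also in the PRC1CKO cells, labelled Ring1a-/-, and on Rnf2 after OHT. Counts over a whole gene body do not show a deletion of part of it or a point mutation, so they do not check the genotypes.

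The first question was whether the Dlx and Msx genes rise in ESCs when PRC1 is removed. In PRC1CKO cells 7 of the 8 members rose after OHT, and none fell. Dlx4 was the exception, and the calls of Dlx3, Dlx4 and Msx2 depended on the fit. The test was limma on log2(normalised read count + 1) with Benjamini-Hochberg adjustment over 16940 transcripts, and a call required a fold change above 1.5 together with an adjusted p under 0.05. Of all transcripts tested, 16.5% were called higher in this comparison. The median change of the members was 3.21 on the log2 scale, against 0.12 over all transcripts tested. Every OHT library lay above every untreated one for 7 members (22.1% of all transcripts did so), Dlx3 being the exception.

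Dlx1 and Dlx2, the pair that specifies GABAergic neurons in the ventral forebrain, rose from a few reads. Dlx1 had normalised counts of 2.98, 3.08 and 1.69 in the untreated PRC1CKO libraries and of 36.2, 45.4 and 20.9 after OHT. All 3 treated libraries lay well above the untreated ones, the log2 change was 3.25 (SE 0.66) and the adjusted p from limma 0.00013. For Dlx2 the untreated libraries gave 0, 6.16 and 5.07 and the treated ones 63.3, 68.5 and 54.1. It had the tightest treated values of the pair, with a log2 change of 4.16 (SE 0.58, adjusted p 1.1e-07). This value leaned on the untreated library at 0: it was 3.25 without that library, replicate 1, 3.23 without the 4 libraries of replicate 1 and 5.38 with a pseudocount of 0.1, and it was called each time.

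Dlx5 and Dlx6, which set the identity of the lower jaw and also act in the forebrain, were close to absent before treatment. Dlx6 was at 4.47, 0 and 0 in untreated PRC1CKO cells and at 56.9, 53.7 and 31.4 after OHT. Its log2 change of 4.73 (SE 0.69, adjusted p 2.9e-07) was the largest of the 8 members in this line. Dlx5 was at 0, 1.54 and 0 and then at 20.8, 20.4 and 15.7, a log2 change of 3.86 (SE 0.80, adjusted p 0.00017). The untreated groups held 3 reads on Dlx6 and 2 on Dlx5, so these changes depend on the pseudocount (7.00 and 6.22 with a pseudocount of 0.1). The change of Dlx6 was 5.55 without replicate 1 of the untreated cells, which held all 3 of its reads, and 5.40 without the 4 libraries of replicate 1. The ratio of summed reads, scaled by the size factors, was 49.5 for Dlx6 (95% exact counting interval over read pairs 10.0 to 314) and 29.8 for Dlx5 (5.06 to 1233).

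Dlx3, known for its part in the placenta, hair and teeth, and Dlx4, its less studied partner, were already measurable before treatment. Dlx3 had 110.2, 32.3 and 44.0 normalised counts in untreated PRC1CKO cells and 175, 143 and 107 after OHT. The highest untreated library lay just above the lowest treated one, and Dlx3 rose by 1.35 on the log2 scale (SE 0.37, adjusted p 0.0055). Dlx4 had 8.94, 16.9 and 15.2 untreated and 35.3, 23.1 and 33.1 after OHT. These groups did not overlap, but the log2 difference of 1.12 (SE 0.48, adjusted p 0.099) did not pass the test. With the replicate number as a block, a pairing not adopted for this comparison, it was called (adjusted p 0.017 by limma), as were the other members, where 20.3% of all transcripts were called higher.

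Msx1 and Msx2, repressors that act downstream of BMP in the skull, teeth and limbs, both rose, Msx1 by more. Msx1 was at 29.8, 7.70 and 8.46 in untreated PRC1CKO cells and at 157, 107 and 105 after OHT, a log2 change of 3.16 (SE 0.43, adjusted p 6.4e-08). Msx2 was at 74.5, 40.8 and 38.9 and then at 164, 96.3 and 107, a log2 change of 1.26 (SE 0.42, adjusted p 0.024). For both genes replicate 1 was the highest library before and after treatment, and the change of Msx1 was 3.75 without replicate 1 of the untreated cells. The call of Msx2 rested on single libraries: the adjusted p was 0.14 without replicate 3 of the untreated cells (log2 1.10) and 0.13 without replicate 1 of the treated cells (log2 1.03). All 8 members passed the filter of 10 reads in 3 libraries, but Dlx1, Dlx2, Dlx5 and Dlx6 had fewer than 10 reads in every untreated library. With no filter 5 members were called, without Dlx3 and Msx2 (10.7% of 20633 transcripts were called higher). Dlx3 and Msx2 were also not called by limma with no trend of variance with level (adjusted p 0.057 and 0.11). That fit called 2524 of 16940 transcripts higher.

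**Figure D1:**
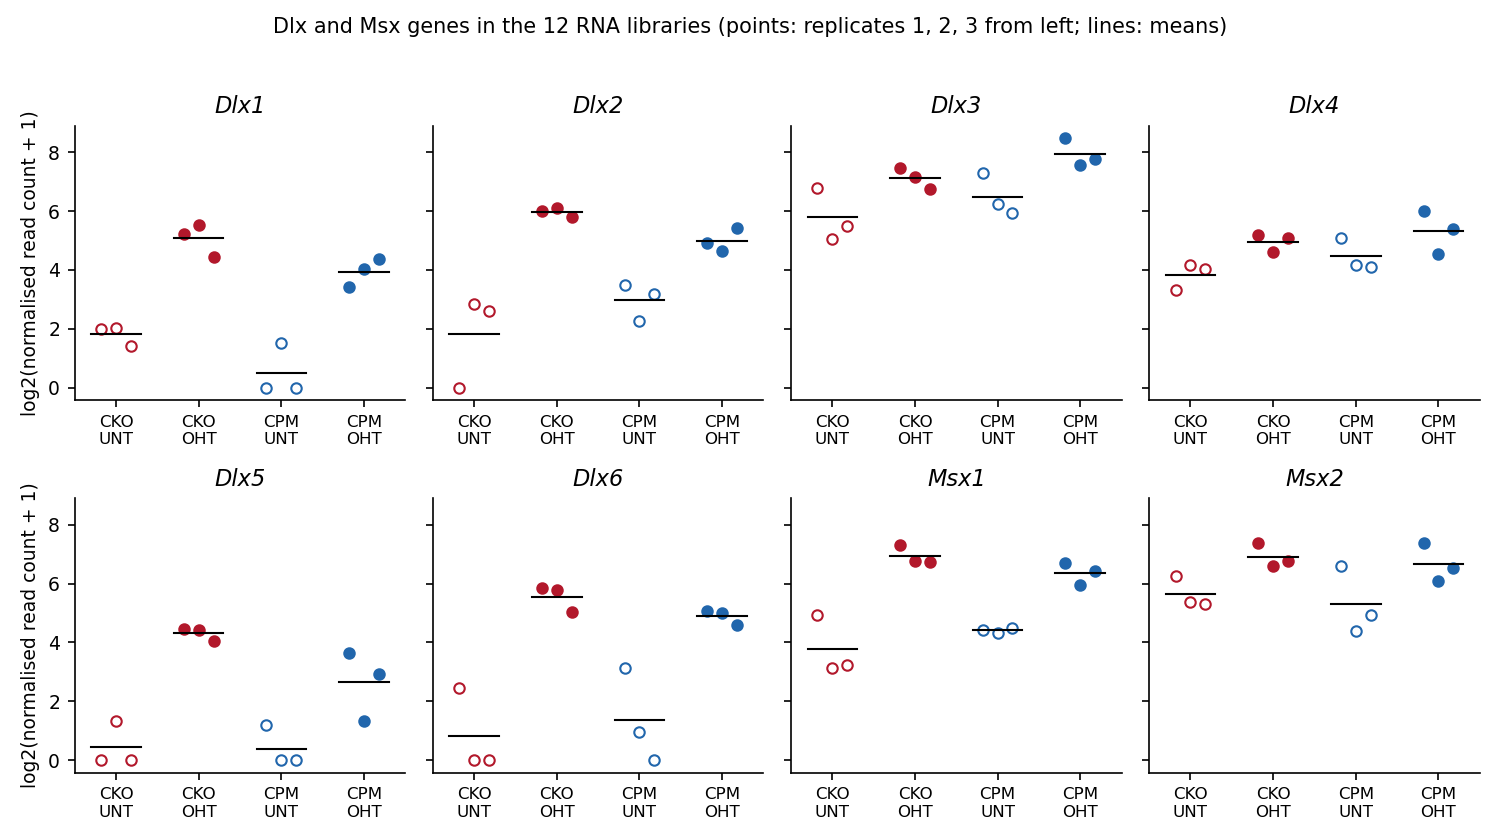
Normalised read counts of the 8 members in each of the 12 libraries, on the scale log2(normalised read count + 1), with untreated (open points, UNT) and OHT-treated (filled points) PRC1CKO cells in red and PRC1CPM cells in blue. Black lines are means of 3 libraries; the treated points lie above the untreated ones with no overlap for 7 members in PRC1CKO cells and 6 in PRC1CPM cells.

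The second comparison asked what happens to the same genes when PRC1 stays but cannot ubiquitylate H2A. In PRC1CPM cells after OHT the same 7 members rose, Dlx4 again did not pass the test, and none fell. The count was 4 without replicate 3 of the untreated or replicate 1 of the treated PRC1CPM cells, and the shares of all transcripts called in those fits are not given here. It was 3 with no filter on low values, where 7.55% of all transcripts were called higher. Of all transcripts tested, 13.1% were called higher in this line, and 11.6% were called higher in both. The median change of the members was 1.98 on the log2 scale, against 0.10 over all transcripts tested. Groups did not overlap for 6 members (18.7% of all transcripts), and the exceptions were Dlx4 and Msx2.

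For the forebrain pair, Dlx1 was at 0, 1.88 and 0 normalised counts in untreated PRC1CPM cells and at 9.65, 15.5 and 19.7 after OHT. This was a log2 change of 3.43 (SE 0.66, adjusted p 9.6e-05), and with 2 reads before treatment the ratio of summed reads was 19.1 (counting interval 3.12 to 786). A pseudocount of 0.1 gave a log2 change of 5.74 for Dlx1. Dlx2 was at 10.2, 3.77 and 8.13 untreated and at 29.0, 24.0 and 41.6 after OHT. It rose by 2.01 on the log2 scale (SE 0.58, adjusted p 0.011), and the adjusted p was 0.064 without replicate 3 of the treated cells (log2 1.79) and 0.15 with a pseudocount of 0.1 (log2 2.16).

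At the Dlx5 and Dlx6 locus, Dlx6 had 7.67, 0.942 and 0 normalised counts in untreated PRC1CPM cells and 32.8, 30.9 and 23.0 after OHT, a log2 change of 3.53 (SE 0.69, adjusted p 0.00012). It was 4.41 without replicate 1 of the untreated cells, 2.85 without their replicate 3, 4.31 without the 4 libraries of replicate 1 and 4.94 with a pseudocount of 0.1, and stayed called. Dlx5 had 1.28, 0 and 0 untreated and 11.6, 1.55 and 6.57 after OHT. It was the least certain of the calls in this line. The lowest treated library held 2 reads and the highest untreated one held 1, and the log2 change was 2.24 (SE 0.80, adjusted p 0.049). The treated PRC1CPM libraries held 12, 2 and 6 reads, too few to pass the filter of 10 reads in 3 libraries by themselves. Dlx5 was thus tested in this line only through its 23, 22 and 18 reads in the treated PRC1CKO libraries. It was not called with no filter on low values (adjusted p 0.057 by limma). With a pseudocount of 0.1 the log2 change was 4.39 and the call was lost (adjusted p 0.095). The ratio of summed reads was 15.9 (counting interval 1.13 to 346). Dlx5 stayed called in 5 of the 12 fits that left out 1 library, with the highest value, 2.89, without replicate 2 of the treated cells. The log2 change and adjusted p were 1.74 and 0.30 without replicate 1 of the treated PRC1CPM cells, 2.10 and 0.16 without their replicate 3, and 2.05 with 0.12 and 0.13 without replicates 2 and 3 of the untreated PRC1CPM cells. Leaving out replicate 1, 2 or 3 of the treated PRC1CKO cells, which enter only the shared spread, gave adjusted p values of 0.069, 0.070 and 0.067. Without the 4 libraries of replicate 1 they were 2.13 and 0.20, the only call among the members of either line that this changed.

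Dlx3 had 156, 75.4 and 59.6 normalised counts in untreated PRC1CPM cells and 355, 186 and 219 after OHT. It rose by 1.45 on the log2 scale (SE 0.37, adjusted p 0.0039), with no overlap between the groups. Its adjusted p was 0.055 without replicate 3 of the untreated cells (log2 1.16) and 0.056 without replicate 1 of the treated cells (log2 1.18), and 6.3e-09 with the replicate number as a block. Dlx4 was at 33.2, 17.0 and 16.3 and then at 63.7, 22.4 and 40.5, so that 1 treated library lay within the untreated range, and the log2 difference was 0.86 (SE 0.48, adjusted p 0.31).

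Msx1 was at 20.5, 18.8 and 21.7 in untreated PRC1CPM cells, values close to one another, and at 102, 60.3 and 85.4 after OHT. The log2 change was 1.94 (SE 0.43, adjusted p 0.00071). Msx2 ranged more widely, with 94.6, 19.8 and 29.8 untreated and 163, 66.5 and 92.0 after OHT. The first untreated library overlapped the treated ones, and the log2 change was 1.36 (SE 0.42, adjusted p 0.018). The adjusted p of Msx2 was 0.15 without replicate 2 of the untreated cells (log2 0.90), 0.096 without their replicate 3 (log2 1.18), 0.18 without replicate 1 of the treated cells (log2 1.01), and 0.074 with DESeq2. Without replicate 1 of the untreated cells, the library that overlapped, the log2 change was 2.00. Msx2 was higher after OHT between the libraries of each number, and with that number as a block its adjusted p was 6.0e-06 by limma. With no filter on low values 3 members were called in this line, namely Dlx1, Dlx6 and Msx1 (7.55% of all transcripts were called higher).

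**Figure D2:**
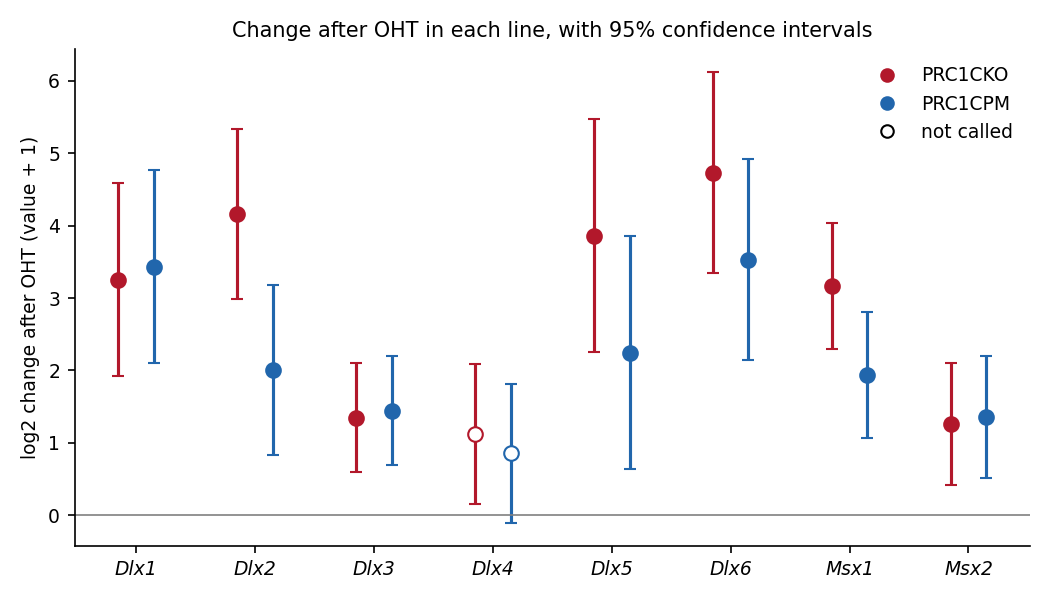
Change of each member after OHT on the log2(normalised read count + 1) scale, with its 95% confidence interval from limma, in PRC1CKO (red) and PRC1CPM (blue) cells. Filled points passed the test; the open points of Dlx4, at 1.12 and 0.86, did not in either line.

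The order of the members changed with treatment when levels were compared per kb of gene body. Exons made up from 23.1% (Dlx6) to 73.9% (Dlx2) of the gene body. The order is thus one of reads per gene body, and an order per kb of exon, which could differ, is not given. In untreated PRC1CKO cells Dlx3 stood first with 12.01 ± 8.12 normalised counts per kb (SD, n = 3), then Msx2 with 8.71 ± 3.39, Msx1 with 3.74 ± 3.06 and Dlx4 with 2.56 ± 0.79. Dlx2, Dlx1, Dlx6 and Dlx5 followed with means of 1.12, 0.57, 0.32 and 0.12 per kb, and each gene overlapped the next in this order. After OHT Msx1 stood first with 30.1 ± 7.23 per kb, then Dlx3 with 27.4 ± 6.58, Msx2 with 20.7 ± 6.12 and Dlx2 with 18.5 ± 2.18. Neighbours among these 4 overlapped, while Dlx2 stood clear of Dlx6 at 10.2 ± 3.00, and Dlx1 (7.53), Dlx4 (5.70) and Dlx5 (4.44) came last.

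In PRC1CPM cells the untreated order began in the same way, with Dlx3 at 18.7 ± 9.99, Msx2 at 8.15 ± 6.88, Msx1 at 4.96 ± 0.35 and Dlx4 at 4.14 ± 1.79 normalised counts per kb. After OHT Dlx3 remained first at 49.0 ± 17.3 per kb and stood clear of Msx1 at 20.2 ± 5.16. Msx2 (18.2 ± 8.49), Dlx2 (9.42 ± 2.72), Dlx4 (7.88 ± 3.86) and Dlx6 (6.24 ± 1.12) came next, each overlapping its neighbour. Dlx1 at 3.29 ± 1.11 lay below Dlx6 without overlap, and Dlx5 at 1.54 ± 1.18 was last.

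The third comparison set the levels reached with inactive PRC1 against those reached without PRC1. None of the 8 members was called between the OHT-treated lines by limma, edgeR or DESeq2 without a replicate block, where 1.47% of all transcripts were called by limma, and 2 members had an unadjusted p under 0.05. The difference (PRC1CPM minus PRC1CKO) was below 0 for 6 members and above 0 for Dlx3 and Dlx4. Every PRC1CPM library lay below every PRC1CKO library for Dlx1, Dlx2, Dlx5 and Msx1 (4.35% of all transcripts did so) and above for Dlx3 (11.9%). Dlx5 differed by -1.67 on the log2 scale (95% interval -3.27 to -0.06, adjusted p 0.42) and Dlx1 by -1.13 (-2.46 to 0.20). For Dlx2 the difference was -0.98 (-2.16 to 0.19), for Dlx6 -0.66 (-2.05 to 0.73), for Msx1 -0.58 (-1.45 to 0.29) and for Msx2 -0.25 (-1.09 to 0.59). These intervals include differences of more than 2-fold for all of these genes, so that equal levels were not shown. The difference of Dlx5 was -1.02 without replicate 2 of the treated PRC1CPM cells.

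Dlx3 was 0.81 higher on the log2 scale in treated PRC1CPM cells (95% interval 0.06 to 1.56, adjusted p 0.39) and Dlx4 0.36 higher (-0.60 to 1.32). With the replicate number as a block Dlx3 was called (adjusted p 0.0065 by limma), 1 of 8 members where 8.05% of all transcripts were called. Both genes lie on chromosome 11, whose 1380 tested transcripts had a median difference between the lines of 0.42 after OHT and 0.45 untreated, against 0.10 and 0.12 over all transcripts. With the chromosome's median taken off, Dlx3 differed by 0.38 and Dlx4 by -0.07 after OHT, and by 0.26 and 0.18 untreated. Chromosome 6, with Dlx5 and Dlx6, had a median of 0.30 after OHT and 0.31 untreated, and with it taken off Dlx5 differed by -1.97 and Dlx6 by -0.96. The medians of chromosomes 2, 5 and 13, which hold the other 4 members, were between 0.04 and 0.10. A change in copy number of these chromosomes in either clone was not tested.

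Between the untreated lines no member was called by limma, edgeR or DESeq2 without a replicate block (limma called 2.69% of all transcripts), and none had an unadjusted p under 0.05. Dlx2 differed by 1.16 (95% interval -0.01 to 2.34, log2, PRC1CPM minus PRC1CKO), Dlx1 by -1.31 (-2.64 to 0.02) and Dlx3 by 0.71 (-0.04 to 1.46). With a pseudocount of 0.1 the differences were 2.22 for Dlx2 and -3.26 for Dlx1, and neither was called. Without replicate 1 of the untreated PRC1CKO cells, which had the highest Dlx3 value of that group, Dlx3 was called (log2 1.22, adjusted p 0.027), and with the replicate number as a block it was called on all 12 libraries (adjusted p 0.017 by limma), 1 of 8 members where 11.1% of all transcripts were called. Dlx3 was higher in PRC1CPM cells between the libraries of each number, untreated and treated, and these values do not have the chromosome's median taken off. The difference of Dlx2 was 0.26 without that same PRC1CKO library, which held no Dlx2 read, and 0.0016 without the 4 libraries of replicate 1.

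The interaction of line and treatment was called for none of the 8 members by limma, edgeR or DESeq2, and limma called 4 of all transcripts (0.0236%) at an adjusted p under 0.05. With the replicate number as a block limma called 78 transcripts higher and 246 lower, and no member. An estimate of the interaction below 0 stands for a smaller rise in PRC1CPM than in PRC1CKO cells. Without the block the estimate was below 0 for Dlx2 (-2.15, 95% interval -3.80 to -0.49), Dlx5 (-1.62, -3.89 to 0.66), Msx1 (-1.22, -2.45 to 0.01), Dlx6 (-1.20, -3.17 to 0.76) and Dlx4 (-0.27, -1.63 to 1.09). For Dlx1, Dlx3 and Msx2 it was 0.18, 0.10 and 0.10. Dlx2 was the only member with an unadjusted p under 0.05 (0.012, adjusted p 1.0). Its estimate was -1.24 without replicate 1 of the untreated PRC1CKO cells and -0.93 without the 4 libraries of replicate 1, and all of these estimates use the same libraries as the comparisons above. Leaving out 1 library moved the estimate to between -2.02 and -0.32 for Dlx6, to -0.97 for Dlx5 and to -1.81 for Msx1. The changes behind these estimates also depended on the pseudocount. With 0.1 Dlx1 changed by 3.65 in PRC1CKO and 5.74 in PRC1CPM cells, so the 0.18 of Dlx1 did not show equal rises. Dlx2 then changed by 5.38 and 2.16, and Dlx6 by 7.00 and 4.94.

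Transcripts that overlap a member on the opposite strand were few and held few reads, with 2 exceptions. Dlx6os1 (also Evf2), a long noncoding RNA that runs through the whole of Dlx6, rose with it, by 5.64 in PRC1CKO cells (SE 0.64, adjusted p 5.9e-10) and by 3.72 in PRC1CPM cells (adjusted p 1.7e-05), from means of 0.56 and 3.19 normalised counts to 70.6 and 37.9. A730090H04Rik, which overlaps Dlx4 by 749 bases, rose by 1.53 in PRC1CKO cells (adjusted p 0.0041) and differed by 1.13 in PRC1CPM cells (adjusted p 0.056). The library kit keeps strand, and whether reads were counted by strand was not given in the sources used here. Dlx6os2 lies wholly inside Dlx6 and held 3 reads in all libraries against 262 on Dlx6, and Msx1os lies wholly inside Msx1 and held 2 against 764, so reads of these 2 members were not also counted for the transcript on the other strand. Dlx1as, which overlaps most of Dlx1, held 12 reads against 171.

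The genes beside the members were examined next. The 3 nearest symbols on each side of each member, members left out, were 34 transcripts, of which 26 were tested. In PRC1CKO cells 7 of the 26 were called higher and 1 lower after OHT (16.5% and 3.09% of all transcripts), with a median change of 0.07, and in PRC1CPM cells 2 were called higher and none lower (13.1% and 1.40%), with a median of 0.14. The pair of calls shared by both lines was Dlx6os1 and Nsg1, a neuronal membrane protein gene 335 kb from Msx1, which rose by 4.01 and 2.80. Tac1, the substance P gene 673 kb from Dlx5, rose by 2.24 in PRC1CKO cells and differed by 1.35 (adjusted p 0.11) in PRC1CPM cells. A730090H04Rik (1.53, above), Samd14 (1.27), Stk32b (0.98) and Ror2 (0.62), the last a receptor for Wnt ligands, were the other genes called higher in PRC1CKO cells, and Pdk1, a mitochondrial kinase gene 326 kb from Dlx2, fell by 0.89. Itga3, 43.4 kb from Dlx3, and Metap1d, 76.1 kb from Dlx1, differed by 0.32 and 0.05 and were not called.

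**Figure D3:**
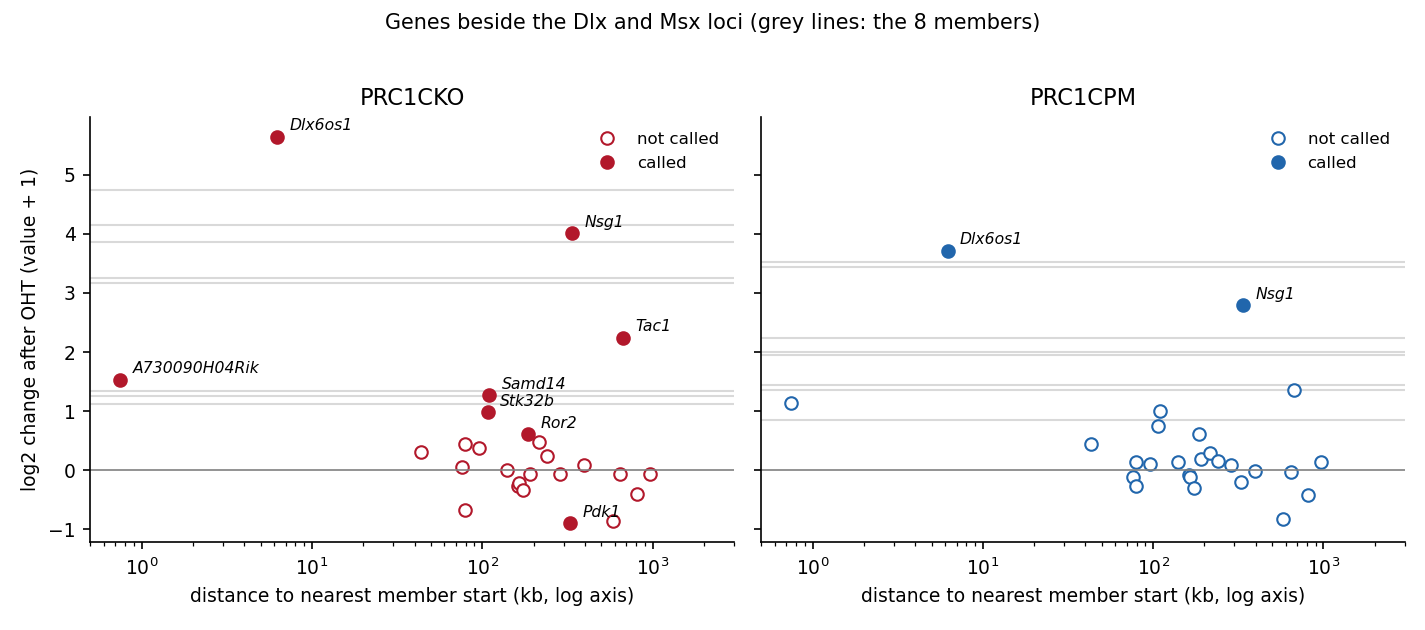
Change after OHT (log2(normalised read count + 1)) of the 26 tested genes beside the members, against the distance between their start and that of the nearest member in kb on a log axis, in PRC1CKO (left) and PRC1CPM (right) cells. Filled points were called and grey lines mark the 8 members; Dlx6os1 and Nsg1 were the 2 called in PRC1CPM cells.

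Other genes of the pathways around the Dlx and Msx genes were taken from lists, and their counts are descriptions, to be read against the 16.5% and 13.1% of all transcripts called higher in PRC1CKO and PRC1CPM cells. BMP ligands, which induce Msx genes in many tissues, were called higher for 6 of 6 tested in PRC1CKO cells and 5 of 6 in PRC1CPM cells (7 listed). Gdf7 rose most in PRC1CKO cells (log2 3.94, and 1.52 in PRC1CPM cells), and Gdf6 most in PRC1CPM cells (2.30, and 2.73 in PRC1CKO cells). Gdf7 and Bmp6 were already higher in untreated PRC1CPM than in untreated PRC1CKO cells (log2 2.47 and 0.98, adjusted p 0.00046 and 0.020 by limma). The treated means of Gdf7 were 84.1 normalised counts in PRC1CKO and 91.1 in PRC1CPM cells, and the interaction was called for neither gene. Bmp6 rose by 2.37 and 1.67, and Bmp7 by 0.64, the smallest change in PRC1CKO cells, and 0.69. Bmp4 rose by 0.77 in PRC1CKO cells and differed by 0.67 in PRC1CPM cells (adjusted p 0.10).

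Among BMP receptors and SMADs, the part of the pathway that relays the signal, 2 of 8 were called higher in PRC1CKO and 1 of 8 in PRC1CPM cells, shares near those of all transcripts. Bmpr1b, a type I receptor, rose by 2.50 and 1.96. Smad9 rose by 0.96 in PRC1CKO cells and differed by 0.15 (adjusted p 0.90) in PRC1CPM cells, and the signal transducers Smad1 and Smad5 differed by 0.12 and -0.01 in PRC1CKO cells and were not called. Smad9 was already higher in untreated PRC1CPM than in untreated PRC1CKO cells (log2 1.625, adjusted p 0.0038 by limma), and its interaction was not called. Of 11 antagonists and feedback genes, 3 were called higher in each line. Smad6, an inhibitory SMAD, rose by 1.12 and 0.95, and the secreted antagonists Grem1 and Fst rose by 1.96 and 1.29 in PRC1CKO cells, while their differences of 0.77 and 0.28 in PRC1CPM cells did not pass the test (the interaction was not called for either). Id1, a direct BMP target, differed by 0.24 and 0.79 and was not called, and Id2 differed by -0.38 in PRC1CKO cells and rose by 0.86 in PRC1CPM cells. The interaction of Id2 was not called (1.24, adjusted p 0.65 by limma).

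Genes that act with Dlx and Msx factors in the pharyngeal arches and neural crest were called higher for 16 of 20 in PRC1CKO and 15 of 20 in PRC1CPM cells, with medians of 3.53 and 2.06. Pax3 and Pitx1, homeobox genes of the neural crest and of the first arch and hindlimb, led in both lines, with 5.97 and 5.51 in PRC1CKO cells and 4.03 and 3.58 in PRC1CPM cells. Foxd3 and Edn1, the latter the signal that acts above Dlx5 and Dlx6 in the lower jaw, differed by 0.14 and 0.16 in PRC1CKO cells and were not called in either line. Ventral forebrain and GABAergic genes were called higher for 12 of 14 and 8 of 14, with medians of 2.03 and 1.505. Lhx8 rose by 5.88 and 4.19, and Nkx2-1 by 5.04 in PRC1CKO cells (0 normalised counts in all untreated libraries) and 2.16 in PRC1CPM cells. Gsx2 and Etv1 differed by 0.26 and -0.40 in PRC1CKO cells and were not called.

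Of 10 skeletal and tooth targets listed, 5 were tested and 2 called higher in each line. Runx2, the osteoblast regulator, rose by 2.56 and 1.41, Alpl by 0.80 in PRC1CKO cells, and Sp7 by 1.72 in PRC1CPM cells (differing by 0.58, adjusted p 0.63, in PRC1CKO cells). Spp1 and Col1a1 differed by 0.28 and 0.14 in PRC1CKO cells and were not called.

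**Figure D4:**
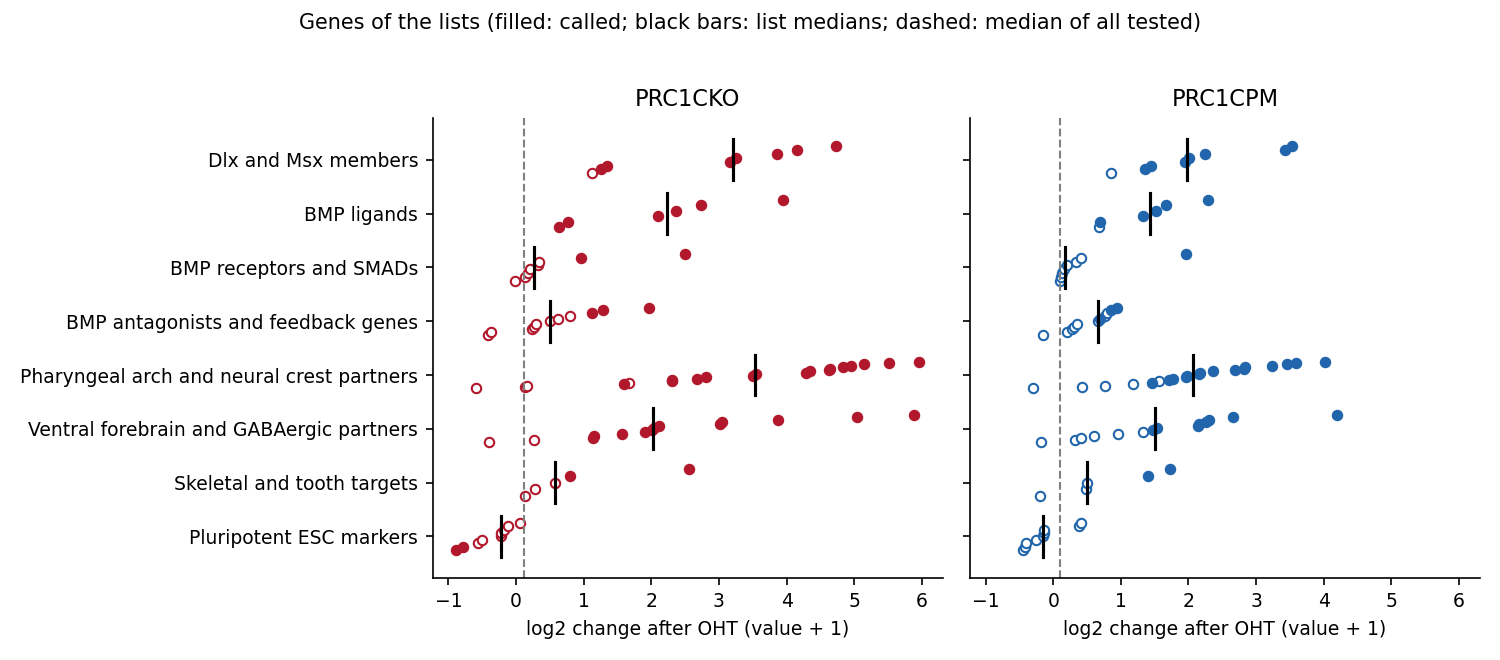
Change after OHT (log2(normalised read count + 1)) of each tested gene of the pathway lists and of the ESC markers in PRC1CKO (left) and PRC1CPM (right) cells, with filled points for genes called, black bars for list medians and a dashed line for the median of all transcripts tested. The members' medians are 3.21 and 1.98 and those of the ESC markers -0.23 and -0.15.

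The labelled cell type was checked with its markers. All 9 ESC markers in the table were abundant in every condition, with Tdgf1 highest (means of 20320, 13370, 21420 and 17010 normalised counts in untreated and treated PRC1CKO and PRC1CPM cells), and their sum had medians of 63630, 53050, 65860 and 67180. None rose, and 2 fell in PRC1CKO cells, Sox2 by 0.89 and Utf1 by 0.79. Of all transcripts 16.5% were called higher in PRC1CKO and 13.1% in PRC1CPM cells, and 3.09% and 1.40% lower. Primitive endoderm markers were called higher for 5 of 7 in PRC1CKO and 7 of 7 in PRC1CPM cells. Their sum rose from a median of 1019 (650 to 1801) to 3361 (3127 to 4380) and from 707 (695 to 818) to 2006 (1531 to 2312), with Pdgfra most abundant. Neural crest markers were called for 4 of 6 in both lines, and their sum went from a median of 373 (343 to 818) to 1660 (1587 to 2029) and from 399.9 (359 to 596) to 1064 (888 to 1325), with Ets1 most abundant.

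Mesoderm markers were called for 3 of 5 in both lines, and their sum had medians of 142 (139 to 338) untreated and 519 (480.4 to 636) treated, and of 194 (193 to 340.1) and 559 (372 to 729.7), without overlap in either line (Kdr most abundant). Neural progenitor markers were called higher for 3 of 6 in both lines and lower for 1, Tubb3, in PRC1CKO cells (Map2 most abundant). Their sum had medians of 1894 (1671 to 2650) untreated and 2903 (2588 to 3083) treated, and of 1692 (1467 to 1868) and 2081 (1848 to 2763), and the ranges overlapped in both lines. Trophoblast markers, which matter for Dlx3 and Dlx4, were called higher for 3 of 7 in both lines and lower for 1, Tfap2c, in PRC1CKO cells, where their sum had medians of 1863 (1497 to 2002) before and 1545 (1475 to 1973) after treatment, with overlap, against 1340 (1244 to 1426) and 1916 (1660 to 2545) in PRC1CPM cells, without it (Tfap2c most abundant). Surface ectoderm markers were called for 1 of 3, Trp63, in PRC1CKO and none in PRC1CPM cells (Grhl3 most abundant), with sums of 394 (349 to 548) and 503 (496 to 572), and of 502 (384 to 632) and 590.4 (435 to 875), which overlapped. Trp63 was already higher in untreated PRC1CPM than in untreated PRC1CKO cells (log2 2.87, adjusted p 0.0030 by limma). Fibroblast markers were called for 1 of 4, Thy1, in PRC1CKO and none in PRC1CPM cells (Col1a1 most abundant). Their sums also overlapped, at 2668 (2031 to 5665) and 3496 (3124 to 3930), and at 4622 (3692 to 14460) and 6192 (4505 to 14740). No list had a marker at 0 in every untreated library, and the part of other cell types in the members' rise was not tested.

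By the likeness of their levels over the 12 libraries (Pearson correlation on the log2 scale, which the libraries' shared scale and the treatment both enter), Dlx1 was nearest to Hoxc4 (0.98), Dcaf12l1 (0.98) and Hoxa10 (0.98), and Dlx2 to Isl2 (0.99), Rasgrf1 (0.98) and Emx1 (0.98), of which Isl2 and Emx1 are homeobox genes of the nervous system. Dlx5 was nearest to Tfap2b (0.96), Hoxd10 (0.95) and 5033428I22Rik (0.95), and Dlx6 to Ntrk3, Rin3 and Gata3 (0.98 each). Msx1 was nearest to Thrb, Zfhx4 and Cdh11 (0.99 each), Msx2 to Dkkl1 and Usp2 (0.98 each) and Lhpp (0.96), Dlx3 to Lrrc32, Ap1m2 (0.99 each) and Wnt9a (0.98), and Dlx4 to Ago4 (0.93), Grm3 (0.92) and Ttll11 (0.92). Among the members themselves, Dlx6 and Msx1 were most alike (0.94) and Dlx1 and Dlx4 least (0.44), over the same 12 libraries.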

How the data were processed

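The authors discarded rDNA reads, aligned the remaining read pairs to mm10 and dm6 with STAR and Bowtie2, kept unique alignments, removed duplicates and counted reads over gene bodies. The authors' deposited signal is this count over a DESeq2 size factor, computed for each library from its Drosophila reads and corrected by a matched genomic DNA library. The 12 genomic DNA libraries were not analysed here, and the deposited columns of the authors' own fold changes and adjusted p-values and a deposited gene list were not used. Line, treatment and replicate number came from the labels, and the methods speak of biological replicates.

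The deposited values were not raw counts, and the design's choice for that case was followed. Dividing by the value of 1 read gave whole reads for 100% of the values, within 0.02 of a read. Of 20633 transcripts, the 16940 with 10 or more reads in 3 or more libraries were fitted on log2(value + 1) with limma 3.58.1 in R 4.3.3, with one mean per condition, a trend of variance with level, and adjusted p-values by the Benjamini-Hochberg method over all of them. The fit was tested on simulated data, but the results of that test are not given here. Counting intervals are exact binomial ones over read pairs and cover counting error only. Alternatives were edgeR 4.0.16 and DESeq2 1.42.0 on the recovered reads, TMM scaling, the spike-in without the genomic DNA correction, no filter, a pseudocount of 0.1, no trend, a fold change above 2, the replicate number as a block, the 6 libraries of a line, chromosome medians taken off, and each library left out. Same-numbered libraries deviated together from their group means, with correlations of 0.25 to 0.44 between untreated and treated PRC1CPM cells, 0.14 to 0.23 between the treated lines and 0.19 to 0.38 between the untreated lines, so the number was taken to pair them there. This comes from the data and not from the labels, and was settled after the calls of the block were known. In PRC1CKO cells it was 0.099 to 0.18. Leaving out the 4 libraries of replicate 1 was added after the values were seen.

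The members and gene lists were chosen with earlier results of these data known. Named genes were the members, the 2 largest called changes per list in each line and up to 2 of the smallest in PRC1CKO cells, the 3 nearest patterns per member and the 3 neighbours on each side. Marker genes were named after their values were seen. Some lists share genes: Sox10, Foxd3, Tfap2a, Pax3, Hand1, Hand2 and Col1a1 each stand in a pathway list and a marker list.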

Additional observations from a re-analysis of the deposited data

How the results depend on the processing

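In the comparisons of OHT against untreated cells every member kept its direction under each alternative run there (chromosome medians were taken off only between the lines) and with every library left out, and the scale changed no call in either line. TMM gave all-gene medians of -0.0019 and -0.0072 in PRC1CKO and PRC1CPM cells in place of 0.12 and 0.10, and the spike-in without the genomic DNA correction -0.037 and 0.39. Over all transcripts 2787 were called higher and 524 lower in PRC1CKO cells and 2226 and 237 in PRC1CPM cells, against 2845 and 1133, and 2396 and 595, with TMM, and 2132 and 666, and 3428 and 68, without the genomic DNA correction. With 7 members called higher in each line, 5 were called in PRC1CKO and 3 in PRC1CPM cells with no filter on low values (10.7% and 7.55% of all transcripts). Leaving out 1 library gave 6 to 7 and 4 to 7. The shares of all transcripts called with 1 library left out, or with only the 6 libraries of a line, are not given here. A loss of calls particular to the members thus cannot be told from a general one in these fits. For PRC1CPM cells DESeq2 called 6, a pseudocount of 0.1 called 5 (not Dlx2 or Dlx5), and only the 6 libraries of the line 6 (not Dlx5). Of 16940 transcripts DESeq2 called 2312 higher in that line, and the pseudocount of 0.1 called 2064. No trend gave 5 members in each line (not Dlx3 or Msx2), where 2524 transcripts were called higher in PRC1CKO and 1993 in PRC1CPM cells. Between the untreated lines leaving out 1 library gave 0 to 1.

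Among small differences that passed no test, signs turned. Between the OHT-treated lines Dlx4 was -0.065 with the chromosome's median taken off, and Msx2 ranged from -0.60 to 0.040 with 1 library left out. Between the untreated lines, with 1 library left out, Dlx5 ranged from -0.45 to 0.40, Dlx6 from -0.34 to 1.36 and Msx2 from -0.99 to 0.12. The interaction of Dlx4 was 0.16 without the genomic DNA correction. That of Msx2 was -0.11 with edgeR and -0.10 with DESeq2. Without replicate 1 it was -0.11 for Dlx3 and 0.073 for Dlx4, and with 1 library left out it ranged from -0.13 to 0.69 for Dlx1, -0.41 to 0.50 for Dlx3, -0.62 to 0.11 for Dlx4 and -0.37 to 0.73 for Msx2. Causes were not tested.

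The replicate number as a block called 8 members in PRC1CKO cells (Dlx4 added, adjusted p 0.017; 20.3% of all transcripts), 1 between the OHT-treated lines (Dlx3, 0.0065; 8.05%) and 1 between the untreated lines (Dlx3, 0.017; 11.1%). Over all transcripts 1131 were higher and 232 lower in treated PRC1CPM cells with the block, against 212 and 37 without it, 524 and 261 with TMM, and 58 and 15 with no filter. Deviations from the group means of libraries with the same number had a mean correlation of 0.20 (0.099 to 0.44, 18 pairs) and of different numbers -0.10, and 12 of 12 libraries matched their own number best in every other condition. Deviations cancel out within a condition, so the value for different numbers follows largely from that for the same number. It is not separate support for a pairing, and the count of best matches is not independent of it. In PRC1CKO cells 1 of the 3 pairs of untreated and treated libraries was narrowly under 0.1 (0.099), so there the libraries were taken to share only a number. That choice was settled after the calls of the block were known, and Dlx4 was called there only with the block. Calls given without mention of the block come from the fit without it in every comparison, also where the number was taken to pair libraries. In the other comparisons the block changed no call but those of Dlx3. Dlx1, Dlx2, Dlx5 and Dlx6 each had an untreated library with no read, where depth limits the fold change.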
